A study of Mus musculus with 12 samples.

Results

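The genes followed here, given by symbol, were measured across the peri-infarct cortex libraries. They are Fkbp5, Sgk1, Tsc22d3, Zbtb16, Pdk4, Cdkn1a, Nfkbia and Sult1a1, which respond to glucocorticoids in many tissues, and the metallothioneins Mt1 and Mt2. All 10 were among the 25238 genes of the count table, and the list is one of symbols, with no threshold on a measured value. The study asked how blocking the proteoglycan receptor PTPσ affects the brain after stroke. In the ISP group, mice received ISP, the intracellular sigma peptide, which enters cells and binds PTPσ, at 1 μg/g/day for 14 days, beginning on day 1 after transient occlusion of the middle cerebral artery for 45 min. In the Veh group, stroke mice received vehicle, 5% DMSO in saline, on the same schedule. Both groups were harvested on day 14, and cortex beside the infarct was micro-punched. The methods describe adult males of 10 to 12 weeks, C57BL/6J or Nestin-creER-Ai9, without saying which gave these libraries, and the results text of the study names a scrambled peptide where the labels and methods name vehicle. A further 4 libraries carry the label control. The sources used here state neither their surgery nor their treatment nor their day, and comparisons with them are made under that label alone. Each group held 4 libraries: ISP 12, 14, 16 and 18, Veh 2, 6, 8 and 10, and control 19, 21, 36 and 38.

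Glucocorticoids cross the cell membrane and bind the glucocorticoid receptor, which is held in the cytoplasm by chaperones, moves to the nucleus and activates genes that carry its response element. Metallothioneins are small cysteine-rich proteins that bind zinc and copper, are made by astrocytes among other brain cells, and are induced by metals through the factor MTF1, by glucocorticoids and in injured tissue.

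The promoter sequences of 3 genes are shown because they hold matches to the metal and glucocorticoid response elements. They are from RefSeq on GRCm38.p6, plus strand, and end just before the annotated start (for Mt1, just before the first annotated exon). Metal response elements (MRE, searched as TGCACNC or TGCGCNC on both strands) are in capitals for the metallothioneins, and the palindromic glucocorticoid response element (GRE, searched as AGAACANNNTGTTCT) is in capitals for 1 of the 6 annotated Sgk1 starts.
Mt1, chr8:94178839-94179081: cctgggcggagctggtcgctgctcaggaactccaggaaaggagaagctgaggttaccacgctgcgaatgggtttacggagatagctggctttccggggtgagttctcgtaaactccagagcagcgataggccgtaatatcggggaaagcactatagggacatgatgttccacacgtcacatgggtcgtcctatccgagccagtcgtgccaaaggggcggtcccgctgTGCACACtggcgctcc
Mt2, chr8:94172368-94172617: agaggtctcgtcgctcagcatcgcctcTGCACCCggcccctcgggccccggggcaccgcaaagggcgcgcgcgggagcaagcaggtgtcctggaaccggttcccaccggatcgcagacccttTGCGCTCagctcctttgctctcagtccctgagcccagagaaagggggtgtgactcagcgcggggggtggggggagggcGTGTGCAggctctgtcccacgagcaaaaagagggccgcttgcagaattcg
Sgk1, chr10:21993640-21993889: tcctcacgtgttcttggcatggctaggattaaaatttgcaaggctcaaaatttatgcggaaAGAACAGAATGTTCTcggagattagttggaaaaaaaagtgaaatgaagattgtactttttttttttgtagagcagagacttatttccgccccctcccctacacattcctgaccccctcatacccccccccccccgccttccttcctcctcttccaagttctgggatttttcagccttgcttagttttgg
Within these windows Mt2 had 3 MRE matches, lying 223 to 44 bases before the start. Mt1 had 1, near the end of the printed stretch. The counts depend on where the windows end: with bases just after the start included, Mt1 had 3 and Mt2 had 4. They are therefore no ranking of the 2 promoters. The printed Mt2 stretch lies within an exon of the antisense gene Gm45774, and the GENCODE start of Mt2 lies further on, at 94172664. Nfkbia, whose window is not printed, also had 1 MRE match. An MRE match was found in 21.4% of 32851 windows of 250 bases, and 3 or more in 1.26%. The Sgk1 match lay 189 to 175 bases before the start, and the full GRE was found in 3 windows, 0.00913% of all. Its shorter motif, AGAACA, which the full element contains, was in 16.1%. Among the genes followed here, it was in windows of Sgk1, Sult1a1 and Tsc22d3. Windows were found for 9 of the 10 genes. The letters are a description of sequence and not of binding.

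Total counts were 19325979 to 28685864 in ISP, 17442711 to 24706638 in Veh and 21322702 to 29845629 in control libraries. Values are given as CPM, read counts scaled to a common library size with TMM normalization, and a gene was called at an edgeR adjusted p under 0.1 over all genes tested. The tissue label was checked on marker lists: 7 neuronal markers summed to 7714 to 9566 CPM in ISP, 8303 to 9470 CPM in Veh and 9179 to 9632 CPM in control libraries. Some libraries stood apart. The summed CPM of 8 reactive astrocyte markers was 631, 1753, 369 and 2946 in ISP 12, 14, 16 and 18, against 183 to 774 in Veh and 74.7 to 85.1 in control, where Lcn2 was at 0 in every library. The sum of 8 activated microglia and macrophage markers was 436 and 384 CPM in ISP 14 and ISP 18, against 41.5 or less in the other ISP, 29.1 to 87.5 in Veh and at most 23.1 in control libraries. The 5 choroid plexus markers summed to 1153 CPM in ISP 18 and 1688 CPM in Veh 6, and to at most 3.43 CPM elsewhere. In Veh 10, fibroblast and meninges markers summed to 156 CPM, against at most 45.6 CPM in any other library. Veh 10 also had the highest sums of endothelium markers (278 CPM) and of pericyte and smooth muscle markers (233 CPM). The part of these cells in the results below was not tested. In bulk tissue, fewer cells of a type and less RNA per cell cannot be told apart.

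None of the 10 genes was called in any of the 3 comparisons by edgeR, and limma-voom also called 0. All 10 were tested each time. For ISP vs Veh, edgeR called 0% of 15214 genes, and the 0 of the 10 is read against that. At an unadjusted p under 0.05, 2 of the 10 passed, against 15.3% of all genes, and 0 of 10 did not overlap between the groups, against 6.77%. DESeq2 called 0 of the 10 and 2.45% of all genes. The median log2 fold change of the 10 was 0.24, against 0.02 over all genes.

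**Figure D1:**
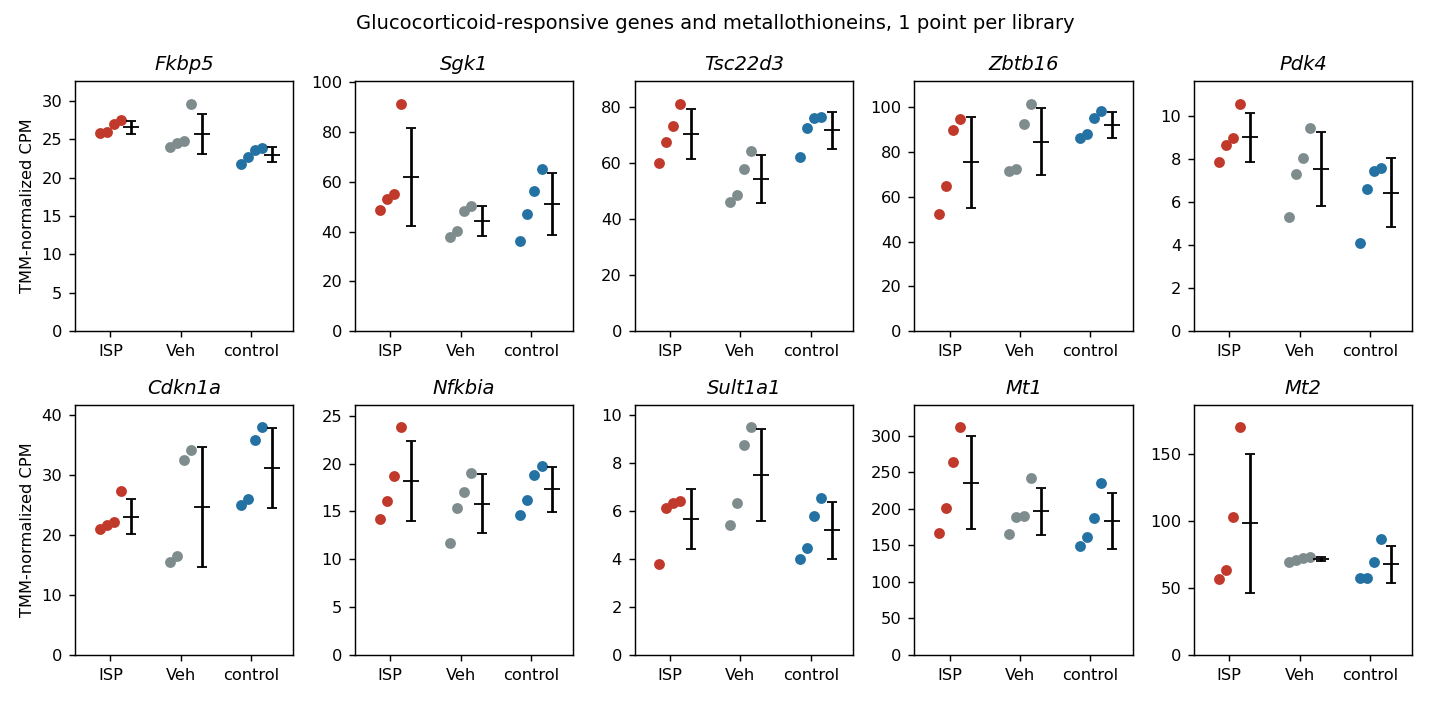
TMM-normalized CPM of the 10 genes (vertical axes, from 0) in ISP, Veh and control, with 1 point per library and the mean and SD of 4 libraries beside them. In Mt2, ISP 18 stands at 170 CPM, while the 4 Veh libraries lie between 69.7 and 73.0 CPM.

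The metallothioneins had the highest levels per kb of exon of the 10 genes in every group. In ISP libraries Mt1 averaged 189 ± 51.5 and Mt2 167 ± 88.5 CPM per kb (SD, n = 4). Mt2 had 56.8, 103, 63.5 and 170 CPM in ISP 12, 14, 16 and 18, against 70.9, 72.5, 69.7 and 73.0 CPM in Veh 2, 6, 8 and 10 and 86.7, 57.7, 57.5 and 69.4 CPM in control 19, 21, 36 and 38. ISP 14 and ISP 18 lay above all Veh libraries, and ISP 12 and ISP 16 lay below all of them. The coefficient of variation of Mt2 was 52.8% in ISP and 2.11% in Veh, where the median tested gene had 12.4% and 12.1%. The log2 fold change ISP vs Veh was 0.47 (SE 0.28, edgeR adjusted p = 0.435), and without ISP 18 it was 0.06.

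Mt1 had 168, 264, 201 and 311 CPM in ISP 12, 14, 16 and 18, against 242, 165, 191 and 189 CPM in Veh 2, 6, 8 and 10 and 235, 150, 161 and 187 CPM in control 19, 21, 36 and 38. The same 2 ISP libraries were the highest of the 12, and the groups overlapped. The log2 fold change ISP vs Veh was 0.27 (SE 0.18, edgeR adjusted p = 0.491). With ISP 14 and ISP 18 both left out, the values were -0.09 for Mt1 and -0.25 for Mt2. These 2 libraries also had the highest reactive astrocyte sums, 1753 and 2946 CPM, against at most 774 CPM in any other library, and their part in the metallothionein values was not tested. Reads of Mt2 per read of Mt1 were 0.546 in ISP 18 and 0.293 to 0.439 in the other 11 libraries. The library protocol describes no strand marking, and 73.5% of the exon bases of Mt2 overlap an antisense gene, Gm45774. Reads from the shared bases therefore cannot be given to 1 of the 2 genes by strand. Whether such reads were counted for Mt2 or set aside was not tested. This limits the Mt2 level per kb and the reads of Mt2 per read of Mt1. On GRCm38, Mt1 lies at chr8:94179082-94180327 and Mt2 at chr8:94172664-94173568.

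Against control, the Veh libraries had log2 fold changes of 0.11 for Mt1 (edgeR adjusted p = 0.745) and 0.09 for Mt2 (adjusted p = 0.767). The ISP libraries had 0.37 for Mt1 (SE 0.19, edgeR adjusted p = 0.267) and 0.54 for Mt2 (SE 0.29, adjusted p = 0.296), and without ISP 18 these were 0.20 and 0.14.

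**Figure D2:**
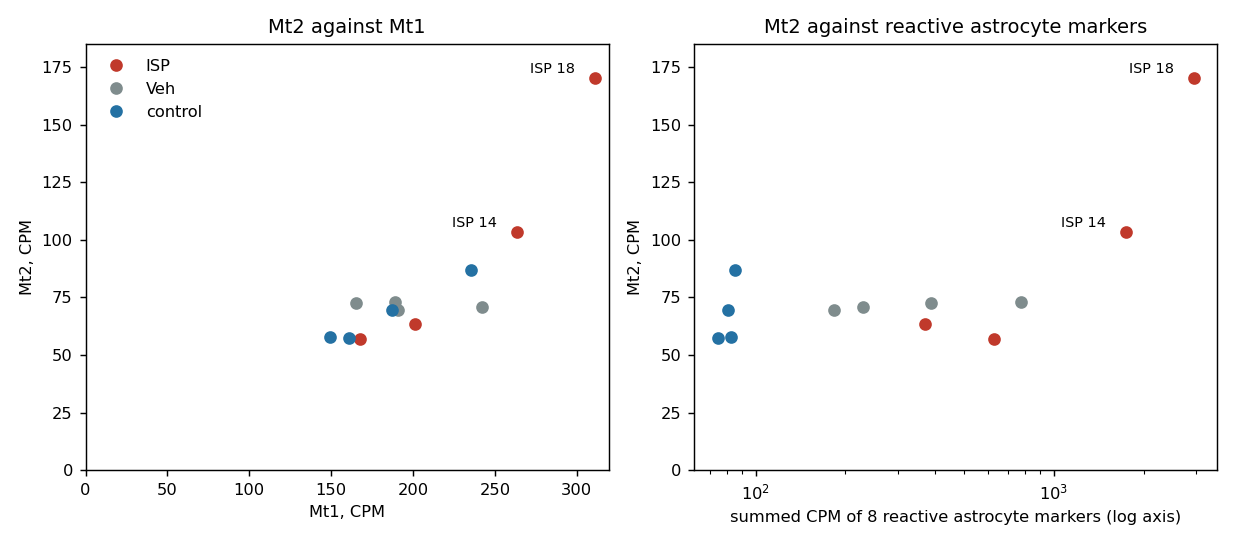
Mt2 CPM against Mt1 CPM (left) and against the summed CPM of 8 reactive astrocyte markers on a log axis (right), 1 point per library, colored by ISP, Veh and control. ISP 14 and ISP 18 lie apart at 103 and 170 CPM of Mt2, while the other 10 libraries lie between 56.8 and 86.7 CPM.

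Mt3, a further metallothionein and not one of the 10 genes followed, had 221 ± 16.8 CPM in ISP, 258 ± 48.3 CPM in Veh and 238 ± 48.8 CPM in control (SD, n = 4 each). Its log2 fold change ISP vs Veh was -0.22 (edgeR adjusted p = 0.404). Mtf1, which encodes the metal-sensing factor, had a log2 fold change of 0.04 (adjusted p = 0.880). Over 10 genes of zinc and copper handling, 0 were called in ISP vs Veh and in Veh vs control, against 0% and 2.23% of all genes. In ISP vs control 2 were called, against 10.2% of all genes. Slc39a10, a zinc importer, fell by 0.45 on the log2 scale (SE 0.11, edgeR adjusted p = 0.0490). Slc31a1, a copper importer, rose by 0.36 (SE 0.12, edgeR adjusted p = 0.0919). In Veh vs control, Slc39a10 was at -0.24 (edgeR adjusted p = 0.141, DESeq2 adjusted p = 0.0415), with all Veh below all control libraries. Slc31a1 was at 0.36 there (edgeR adjusted p = 0.269). In ISP vs Veh, Slc39a10 was at -0.19 and Slc31a1 at 0.02.

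Sgk1, a kinase that stabilizes ion channels and transporters, had 48.6, 55.1, 53.1 and 91.3 CPM in ISP 12, 14, 16 and 18, against 37.9, 50.4, 40.1 and 48.1 CPM in Veh 2, 6, 8 and 10 and 36.0, 56.4, 65.0 and 47.0 CPM in control 19, 21, 36 and 38. ISP 18 lay far above the rest, and the other ISP libraries overlapped with Veh. The log2 fold change ISP vs Veh was 0.49 (SE 0.19, edgeR adjusted p = 0.277) and 0.24 without ISP 18. Veh vs control gave -0.20 (SE 0.16, edgeR adjusted p = 0.597) and ISP vs control 0.29 (SE 0.21, adjusted p = 0.469), the second being 0.03 without ISP 18. The gene lies at chr10:21882184-21999903 (GRCm38).

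Tsc22d3, which encodes the glucocorticoid-induced leucine zipper GILZ, had 67.6, 60.2, 81.3 and 73.4 CPM in ISP 12, 14, 16 and 18, against 46.1, 58.1, 64.6 and 48.6 CPM in Veh 2, 6, 8 and 10 and 62.2, 72.5, 76.1 and 76.4 CPM in control 19, 21, 36 and 38. Veh libraries were the lowest on average, though Veh 8 lay above the lowest ISP and control libraries. By edgeR, the log2 fold change was 0.38 ISP vs Veh (SE 0.12, edgeR adjusted p = 0.266), -0.39 Veh vs control (SE 0.11, adjusted p = 0.124) and -0.02 ISP vs control (adjusted p = 0.935). Both comparisons with control share the 4 control libraries, and the first 2 share the Veh libraries. For Veh vs control, DESeq2 gave an adjusted p of 0.0336, and edgeR without control 19 gave 0.0795. The gene lies on chrX:140539528-140600659.

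Nr3c1, the glucocorticoid receptor and not one of the 10, had 100, 100, 109 and 97.8 CPM in ISP 12, 14, 16 and 18, against 76.0, 83.0, 80.4 and 94.6 CPM in Veh 2, 6, 8 and 10 and 95.9, 113, 109 and 91.1 CPM in control 19, 21, 36 and 38. All ISP libraries lay above all Veh libraries. The difference on the log2 scale was 0.29 ISP vs Veh (SE 0.08, edgeR adjusted p = 0.261, DESeq2 adjusted p = 0.0946) and -0.28 Veh vs control (SE 0.09, edgeR adjusted p = 0.172, DESeq2 adjusted p = 0.0915). Nr3c2, the mineralocorticoid receptor, had log2 fold changes of -0.14, -0.04 and -0.19 in ISP vs Veh, Veh vs control and ISP vs control, with none called. Of 10 receptors, chaperones and steroid enzymes, edgeR called 0 in every comparison. Over all genes it called 0% in ISP vs Veh, 2.23% in Veh vs control and 10.2% in ISP vs control. Of the same 10, 1 (Nr3c1) did not overlap between ISP and Veh, against 6.77% of all genes.

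Fkbp5, a chaperone that lowers the receptor's affinity for hormone, had 25.9, 27.0, 27.4 and 25.8 CPM in ISP 12, 14, 16 and 18, against 24.0, 24.5, 29.6 and 24.8 CPM in Veh 2, 6, 8 and 10 and 21.8, 22.6, 23.9 and 23.6 CPM in control 19, 21, 36 and 38. Both stroke groups lay above control without overlap, by a small margin. Its log2 fold change was 0.05 ISP vs Veh (SE 0.09, edgeR adjusted p = 0.835), 0.17 Veh vs control (SE 0.10, adjusted p = 0.407) and 0.21 ISP vs control (SE 0.09, adjusted p = 0.173). Without Veh 8, Veh vs control was 0.10 and ISP vs Veh 0.12, and without Veh 2, ISP vs Veh was 0.01. The gene lies at chr17:28399094-28517527.

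Pdk4, a kinase that inhibits pyruvate dehydrogenase, had 7.86, 8.96, 8.66 and 10.6 CPM in ISP 12, 14, 16 and 18, against 5.33, 8.06, 7.30 and 9.44 CPM in Veh 2, 6, 8 and 10 and 7.59, 6.59, 4.12 and 7.45 CPM in control 19, 21, 36 and 38. ISP lay above control without overlap, and Veh overlapped with both. By edgeR, the log2 fold change was 0.26 ISP vs Veh (SE 0.19, edgeR adjusted p = 0.532), 0.24 Veh vs control (SE 0.23, adjusted p = 0.647) and 0.49 ISP vs control (SE 0.21, adjusted p = 0.185). Without control 36, Veh vs control was 0.08 and ISP vs control 0.32, and without Veh 2, ISP vs Veh was 0.13. Pdk4 lies at chr6:5483351-5496309. Of 8 other genes of pyruvate dehydrogenase and its regulators, 0 were called in any comparison. In ISP vs Veh, Veh vs control and ISP vs control, 0%, 2.23% and 10.2% of all genes were called.

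Cdkn1a, the cell cycle inhibitor p21 and also a p53 target, had 22.1, 21.1, 27.4 and 21.7 CPM in ISP 12, 14, 16 and 18, against 34.2, 16.5, 32.6 and 15.5 CPM in Veh 2, 6, 8 and 10 and 38.0, 26.1, 25.1 and 35.9 CPM in control 19, 21, 36 and 38. The Veh libraries were split, with Veh 2 and Veh 8 above all ISP libraries and Veh 6 and Veh 10 below all of them (CV 40.7%). The difference on the log2 scale was -0.09 ISP vs Veh (SE 0.24, edgeR adjusted p = 0.886), -0.34 Veh vs control (SE 0.24, adjusted p = 0.535) and -0.43 ISP vs control (SE 0.15, adjusted p = 0.111). For ISP vs control, DESeq2 gave an adjusted p of 0.0666, and edgeR gave 0.0468 without ISP 16, 0.0852 without control 21 and 0.0944 without control 36. The edgeR adjusted p was 0.176 to 0.262 with any other single library left out, and 0.283 with all 12 libraries in 1 fit. Of 11 other genes of a p53 list tested, p53 itself among them, Zmat3 alone was called. It was at -0.29 in Veh vs control (edgeR adjusted p = 0.0945) and -0.23 in ISP vs control (adjusted p = 0.0964). In these 2 comparisons 2.23% and 10.2% of all genes were called. Cdkn1a lies at chr17:29090976-29100727, and 7.68% of its exon bases overlap an antisense gene.

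Sult1a1, a sulfotransferase, had 3.80, 6.41, 6.11 and 6.32 CPM in ISP 12, 14, 16 and 18, against 9.47, 5.41, 6.34 and 8.73 CPM in Veh 2, 6, 8 and 10 and 4.43, 5.78, 6.54 and 3.99 CPM in control 19, 21, 36 and 38. Veh 2 and Veh 10 were the highest of the 12, and the groups overlapped. Its log2 fold change was -0.40 ISP vs Veh (SE 0.24, edgeR adjusted p = 0.441), 0.54 Veh vs control (SE 0.23, adjusted p = 0.260) and 0.13 ISP vs control (adjusted p = 0.797). It had the fewest reads of the 10, 74 to 187 per library, and 7.72% of its 50-base stretches also occur in other genes, so its values are uncertain. The gene lies at chr7:126672865-126676432.

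Zbtb16, a zinc finger transcription factor, had 52.1 to 94.6 CPM in ISP, 71.3 to 101 CPM in Veh and 86.1 to 98.1 CPM in control libraries. ISP 18 had the lowest value of the 12. Nfkbia, the inhibitor IκBα that holds NF-κB in the cytoplasm, had 14.2 to 23.8 CPM in ISP, 11.7 to 19.0 CPM in Veh and 14.7 to 19.7 CPM in control libraries, with the highest value again in ISP 18. For Zbtb16 (chr9:48654297-48836222), log2 fold changes were -0.17 ISP vs Veh (edgeR adjusted p = 0.689), -0.11 Veh vs control (adjusted p = 0.689) and -0.29 ISP vs control (adjusted p = 0.316). For Nfkbia (chr12:55489410-55492647), they were 0.21 ISP vs Veh (edgeR adjusted p = 0.608), -0.13 Veh vs control (adjusted p = 0.748) and 0.08 ISP vs control (adjusted p = 0.836). Without ISP 18, ISP vs Veh was -0.02 for Zbtb16 and 0.05 for Nfkbia. Across the 10 genes, ISP 18 had the highest of the 12 values for 5 (Sgk1, Pdk4, Nfkbia, Mt1 and Mt2) and the lowest for Zbtb16. Beside this, ISP 18 had the highest sums of reactive astrocyte markers and of 7 oligodendrocyte markers (11503 CPM, against 2850 to 7445 CPM in the other 11 libraries), a sum of 1202 CPM for 7 microglia markers (1301 CPM in ISP 14 and 281 to 621 CPM in the other 10), and choroid plexus markers. The part of these cells was not tested.

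**Figure D3:**
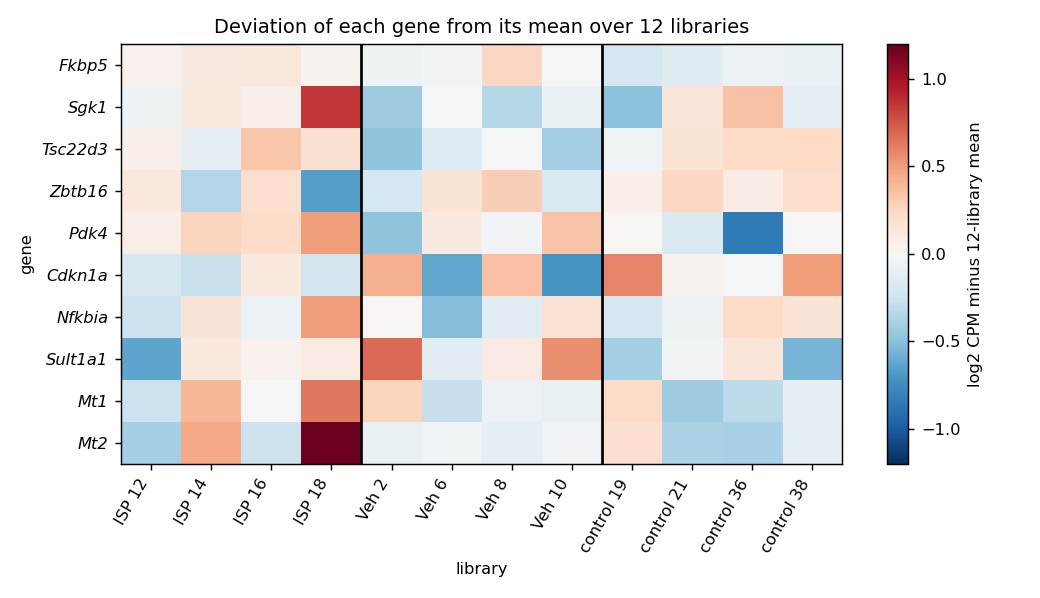
Deviation of each gene's log2 CPM from its mean over 12 libraries (color), with genes in lines and libraries in columns, grouped as ISP, Veh and control from left to right. The median deviation over the 10 genes was 0.34 in ISP 18 and between -0.13 and 0.12 in the other 11 libraries.

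For Veh vs control, edgeR called 0 of the 10 and 2.23% of all genes, and DESeq2 called Tsc22d3 alone, against 6.48% of all genes. At an unadjusted p under 0.05, 2 of the 10 passed (Sult1a1, higher in Veh, and Tsc22d3, lower), against 16.3% of all genes, and 1 of 10 (Fkbp5) did not overlap, against 9.98%. The median log2 fold change of the 10 was -0.01, against 0.02 over all genes.

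For ISP vs control, edgeR called 0 of the 10 and 10.2% of all genes, and DESeq2 called Cdkn1a alone, against 13.7% of all genes. At an unadjusted p under 0.05, 3 of the 10 passed (Fkbp5 and Pdk4, higher in ISP, and Cdkn1a, lower), against 22.3% of all genes, and 2 of 10 (Fkbp5 and Pdk4) did not overlap, against 12.1%. The median log2 fold change of the 10 was 0.17, against -0.01 over all genes.

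**Figure D4:**
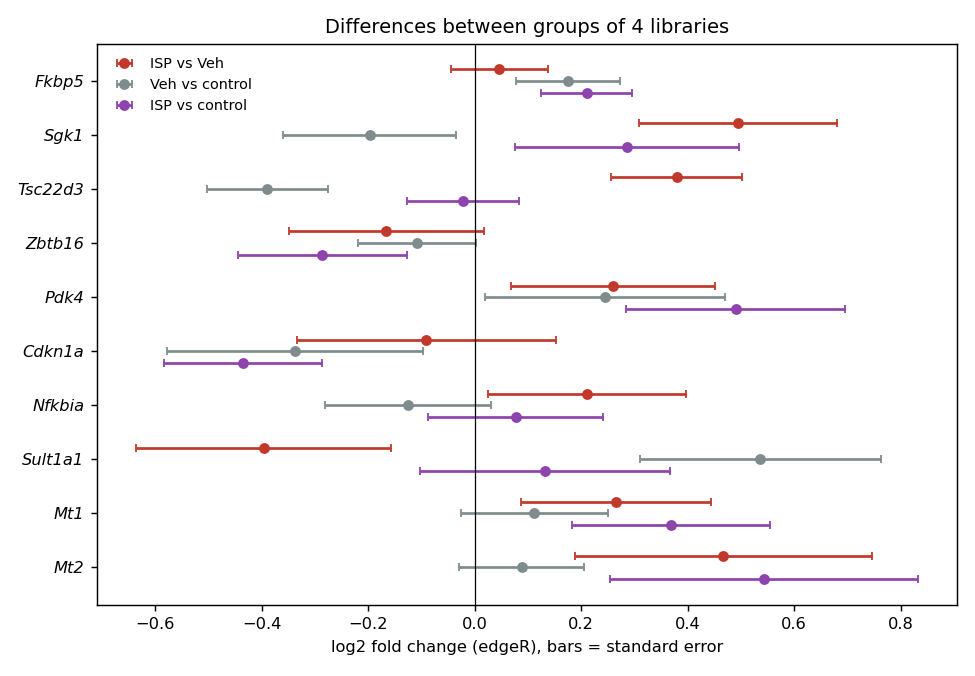
Log2 fold change of the 10 genes (horizontal axis) with its standard error as bars, for ISP vs Veh, Veh vs control and ISP vs control. No edgeR adjusted p is under 0.111, and Tsc22d3 stands at 0.38 for ISP vs Veh and -0.39 for Veh vs control.

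Among 17 other glucocorticoid-responsive genes, edgeR called 0 in ISP vs Veh and in Veh vs control, and 4 in ISP vs control, all higher in ISP, where 0%, 2.23% and 10.2% of all genes were called in the same 3 comparisons. These were Cebpd, a transcription factor that is also induced in inflammation, at 1.83 (SE 0.40, edgeR adjusted p = 0.0305), and Txnip, an inhibitor of thioredoxin, at 0.94 (SE 0.21, adjusted p = 0.0333). The others were Plin4, a lipid droplet coat protein, at 1.62 (SE 0.43, edgeR adjusted p = 0.0524), and Rhou, a small GTPase, at 0.47 (SE 0.13, adjusted p = 0.0555). In Veh vs control, Cebpd, Txnip, Plin4 and Rhou were at 0.26, 0.85, 0.64 and 0.21, and in ISP vs Veh at 1.58, 0.11, 0.99 and 0.27. For Txnip, all Veh libraries lay above all control libraries (DESeq2 adjusted p = 0.0356). Plin4 averaged 3.85 CPM in ISP and 1.27 CPM in control, and Plin4 and Rhou overlapped between these groups. Cebpd had 4.78, 12.0, 4.38 and 17.2 CPM in ISP 12, 14, 16 and 18, against 2.34 to 3.23 CPM in control libraries, so that ISP 14 and ISP 18 were again the highest. In ISP vs Veh the median log2 fold change of the 17 was 0.25, against 0.02 over all genes. DESeq2 called 2 of them, Cebpd and Errfi1, against 2.45% of all genes. Errfi1, an inhibitor of EGF receptor signaling named here after its values were seen, had 32.1, 25.2, 31.3 and 34.0 CPM in ISP 12, 14, 16 and 18, against 21.7, 24.1, 20.3 and 22.4 CPM in Veh 2, 6, 8 and 10. All ISP libraries lay above all Veh libraries, with a log2 fold change of 0.47 (SE 0.11, edgeR adjusted p = 0.261, DESeq2 adjusted p = 0.0484). The control libraries had 22.8 to 33.2 CPM of Errfi1 and overlapped with ISP, with a log2 fold change ISP vs control of 0.17 (edgeR adjusted p = 0.497). Of the 17 genes, 4 did not overlap between ISP and Veh, against 6.77% of all genes. They were Errfi1, Cebpd and Bcl6, higher in ISP, and Angptl4, lower in ISP at a mean of 1.02 CPM, against 1.56 CPM in Veh.

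**Figure D5:**
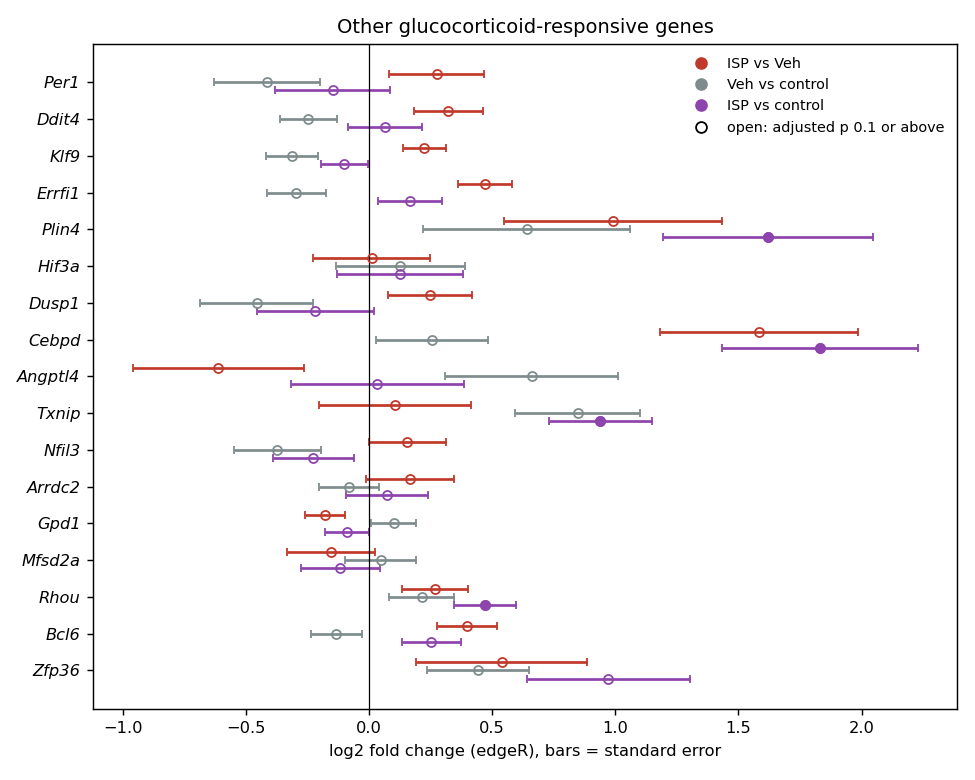
Log2 fold change of 17 other glucocorticoid-responsive genes with standard errors, for ISP vs Veh, Veh vs control and ISP vs control, with filled points for an edgeR adjusted p under 0.1. The 4 filled points, Cebpd, Txnip, Plin4 and Rhou, belong to ISP vs control.

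Called genes of 2 further lists were found in ISP vs control, where edgeR called 10.2% of all genes, 1026 higher and 521 lower in ISP. Of 12 NF-κB pathway genes, 3 rose in ISP: Nfkb1 by 0.61 (edgeR adjusted p = 0.0611), Nfkb2 by 0.76 (adjusted p = 0.0931) and Bcl3, an atypical IκB protein, by 2.87 (adjusted p = 0.0628). Bcl3 had few reads, 2.38 ± 1.87 CPM in ISP and 0.328 ± 0.385 CPM in control (SD, n = 4), and the groups overlapped. In Veh vs control, Nfkb1, Nfkb2 and Bcl3 were at 0.15, 0.23 and 1.63, with none called. Of 8 genes that held relatives of SGK1, TSC22D3 and p21 and the ubiquitin ligase Nedd4l, Tsc22d4 rose by 0.56 (edgeR adjusted p = 0.0603) and Sgk2 by 1.04 (adjusted p = 0.0893). Sgk2 averaged 3.23 CPM in ISP and 1.58 CPM in control libraries. In Veh vs control, Tsc22d4 was at 0.24 and Sgk2 at 0.32, with neither called. Reactive astrocyte markers were called higher in ISP than in control for 6 of 6 tested, and activated microglia and macrophage markers for 6 of 6. Each of these 2 lists holds 8 markers. Microglia markers were called higher for 6 of 7, oligodendrocyte markers for 6 of 7 and astrocyte markers for 4 of 7. In Veh vs control, the markers called higher were 3 of 7, 2 of 6, 3 of 7, 0 of 7 and 1 of 7 in the same order. In that comparison 2.23% of all genes were called. The part of these cells in the values was not tested.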

How the data were processed

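The authors enriched mRNA with oligo(dT) beads, aligned reads to mm10 with HISAT2, obtained gene counts with HTSeq (default settings, GENCODE annotation) and used DESeq2 for testing. Tool versions are not given in the sources used here. Deposited values are raw read counts of 25238 genes in 12 libraries, with 17442711 to 29845629 counts each. Replicates are the libraries the labels number, and p-values measure the spread between them. Pairs within a group differed by more than sampling noise (chi-square per degree of freedom 10.7 to 48.4 over 18 pairs).

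Each comparison was fitted on its own 8 libraries with edgeR 4.0.16 in R 4.3.3 (filterByExpr, TMM, glmQLFit, glmQLFTest), with Benjamini-Hochberg adjustment over all tested genes. The script was tested on simulated data. The SE of a log2 fold change was worked back from the test, as its absolute value divided by the square root of the glmQLFTest F statistic. CPM used TMM factors over 12 libraries. Alternatives were DESeq2 1.42.0, limma 3.58.1 voom with quality weights, other filters and scaling, all 12 libraries in 1 fit, a GC content and length offset, and libraries left out. Leaving out ISP 18 and Veh 6 together was chosen after seeing the data. Gene positions, exon lengths and overlaps are from GENCODE M21. The genes, lists and alternatives were chosen with earlier results of these data known. All 10 genes are named, with up to 4 called genes by smallest p from each list, and Nr3c1, Nr3c2, Mt3 and Mtf1. Errfi1, Bcl6, Angptl4 and the marker Lcn2 are named outside this rule, after their values were seen.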

Additional observations from a re-analysis of the deposited data

Results flagged for a closer look

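In 4 cases a value stood far from the other 3 libraries of its group, by Dixon's test of the gap against the range. They were Sgk1 in ISP 18 (91.3 CPM, nearest other 55.1), Fkbp5 in Veh 8 (29.6 CPM, nearest other 24.8), Cdkn1a in ISP 16 (27.4 CPM, nearest other 22.1) and Sult1a1 in ISP 12 (3.80 CPM, nearest other 6.11). These were 4 of 30 groups examined, and chance marks about 1 in 20 groups.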

How the results depend on the processing

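Of 480 values of the 10 genes under the alternatives, 446 kept their direction and side of the threshold, 9 came to pass it and 25 turned direction, none of which was called. With ISP 14 and ISP 18 both left out, log2 fold changes ISP vs Veh were 0.13 for Zbtb16, 0.0151 for Cdkn1a, -0.0558 for Nfkbia, -0.0896 for Mt1 and -0.25 for Mt2, and ISP vs control 0.0605 for Tsc22d3, 0.0151 for Zbtb16, -0.19 for Nfkbia, -0.0548 for Sult1a1 and -0.17 for Mt2. With ISP 18 and Veh 6 both left out, chosen after seeing the data, Zbtb16 was at 0.0165 and Nfkbia at -0.0726 in ISP vs Veh, and 0 of the 10 were called. The GC content and length offset gave -0.0152 for Fkbp5 in ISP vs Veh, -0.0044 for Mt1 and -0.00047 for Mt2 in Veh vs control, and -0.0344 for Nfkbia in ISP vs control, where voom gave -0.0221. Leaving out each library in turn gave -0.264 to 0.102 for Cdkn1a in ISP vs Veh, -0.00765 to 0.245 for Mt1 in Veh vs control, and -0.102 to 0.0494 for Tsc22d3 and -0.0834 to 0.178 for Nfkbia in ISP vs control. The number of the 10 called in Veh vs control was 1 with DESeq2, 1 with the offset and 0 to 1 with a library left out, and in ISP vs control 1 with no filter, 1 with DESeq2, 1 with the offset and 0 to 1 with a library left out. Over all genes, DESeq2 called 401 in ISP vs Veh and 1109 in Veh vs control, where edgeR called 0 and 337, and 2308 in ISP vs control, where edgeR called 1547, and it called more of the other lists. In ISP vs Veh it called 2 other glucocorticoid-responsive genes, 1 of the receptors, chaperones and steroid enzymes, 1 zinc and copper gene and 1 p53 target. In Veh vs control it called 2, 1, 1 and 2 of these lists, 1 of the pyruvate dehydrogenase genes and 1 of the SGK, TSC22 and CIP/KIP relatives, and in ISP vs control 2 p53 targets (edgeR 1), 5 other glucocorticoid-responsive genes (edgeR 4) and 3 zinc and copper genes (edgeR 2). The cause of these differences was not tested. No paired analysis was possible because the groups share no replicate numbers.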
